A study of Mus musculus with 20 samples.

Results

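The enzymes described here conjugate or hydrolyse foreign compounds: the glutathione transferases (Gsta, Gstm, Gstp, Gstt, Gstk and Gsto), the UDP-glucuronosyltransferases (Ugt1 and Ugt2), the carboxylesterases (Ces1 and Ces2) and the cytosolic sulfotransferases of family 1 (Sult1). Members were taken by gene name, as every protein-coding gene in both deposited count tables whose symbol begins with 1 of these 11 stems. The rule found 57 genes among the 31184 genes shared by the tables. The chow table holds 62 genes with these names. The 5 found only there carried almost no reads over 12 libraries: Ces1a had 8, Ugt2b37 had 2, Ugt1a9 had 1, and Ugt1a10 and Ugt2a2 had 0.

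The libraries come from whole mouse colon, in 5 groups of 4 animals. Pcca, whose product is the biotin-carrying subunit of propionyl-CoA carboxylase, is the targeted gene, and every group descends from animals with a floxed Pcca allele. On standard chow, at 9 weeks of age, there were littermate controls without deletion (chow ff), intestinal knockouts made with Villin-Cre (chow Vill) and liver knockouts made with Albumin-Cre (chow Alb). On a high fat diet (HFD, 60% of kcal from fat, started at 6 weeks of age and given for 12 weeks), at 18 weeks, there were HFD ff and HFD Vill animals. The labels give the HFD animals as male. All animals were fasted for 4 hours. Villin-Cre acts in epithelium and Albumin-Cre in hepatocytes, whereas RNA came from all layers of the flushed colon, so transcripts of muscle, stroma and immune cells are counted too. In such bulk samples, fewer cells of a type and less RNA per cell cannot be told apart. The labels do not say which stretch of the colon each section came from.

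Glutathione transferases join glutathione to reactive electrophiles, UDP-glucuronosyltransferases add glucuronic acid to bilirubin, steroids, phenols and drugs, and sulfotransferases add sulfate from an activated donor to phenols, hormones and amines. Carboxylesterases cut ester bonds in drugs and in lipids. In the gut these enzymes sit mainly in the absorptive epithelium, where they act on compounds from food, bile and bacteria before these reach the liver. Most of the genes lie in tandem clusters: by the deposited coordinates (mm39), the Ugt1 members share chromosome 1, Gstm chromosome 3, Ugt2 together with Sult1b1, Sult1d1 and Sult1e1 chromosome 5, Ces1 and Ces2 chromosome 8, and Gstt chromosome 10. The Ugt1 genes are alternative first exons joined to common later exons. Nothing in the labels says whether samples of a group shared a cage or litter, and p-values measure the spread between these samples only.

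Shared sequence limits how reads of some members can be placed. Of the 50-base stretches of the Ugt1a6a transcripts in GENCODE M21, 0% were found in no other member, and the shares were 30.7% for Ugt1a7c, 41.8% for Ugt1a1, 37.7% for Gstp1, 35.7% for Gstp2, 55.4% for Gsta1 and 65.2% for Ugt2b5. Levels of these genes are uncertain relative to their nearest copies. Gsto1, Gstk1, the Gstt genes, the Sult1 genes, Gsta3 and Gsta4 were 100% unique, and Ces1 and Ces2 members lay between 86.7% and 99.8%.

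Promoters are shown for 6 members. Of these, 5 are among those called along the distal Hox genes in the results below, Ugt1a1, Sult1d1, Ugt2b5 and Ugt1a7c with a negative slope and Ces2g with a positive one. Ugt1a6a, which shares its sequence with Ugt1a7c, was not called there. They are the 100 bases before the start site, from RefSeq on GRCm38.p6. Capitals mark a match to 1 of the 3 motifs given below, which among these stretches was found in Sult1d1 alone: CACGC, the reverse complement of GCGTG, beginning at -47 counted from the start site.
Ugt1a1: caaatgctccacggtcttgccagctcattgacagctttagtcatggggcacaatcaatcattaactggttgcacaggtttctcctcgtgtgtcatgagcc
Ugt1a6a: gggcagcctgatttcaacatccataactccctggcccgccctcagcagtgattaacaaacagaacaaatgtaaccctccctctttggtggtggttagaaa
Sult1d1: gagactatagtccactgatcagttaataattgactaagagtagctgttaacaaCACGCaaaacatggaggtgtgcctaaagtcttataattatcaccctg
Ugt2b5: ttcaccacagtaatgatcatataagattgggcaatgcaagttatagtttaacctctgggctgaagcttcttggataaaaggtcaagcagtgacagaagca
Ces2g: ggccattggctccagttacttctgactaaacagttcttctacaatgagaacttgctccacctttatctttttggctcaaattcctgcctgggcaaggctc
Ugt1a7c: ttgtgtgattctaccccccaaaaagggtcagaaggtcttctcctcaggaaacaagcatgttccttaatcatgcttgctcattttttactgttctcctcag
In order these stretches lie at chr1:88211859-88211958 (plus strand), chr1:88134709-88134808 (plus strand), chr5:87569007-87569106 (minus strand), chr5:87140341-87140440 (minus strand), chr8:104961618-104961717 (plus strand) and chr1:88094901-88095000 (plus strand).

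In RefSeq 50 of the member genes had an entry, with 59 promoters, and the motifs were searched in the 250 bases before each start, also for all 32851 promoters of the table. The antioxidant response core TGACNNNGC, read by Nfe2l2, was found in 5.08% of member promoters (Gsta3, Gstm5 and Gstm7) against 10.2% of all. The GCGTG core of the aryl hydrocarbon receptor was found in 16.9% against 28.2%, and the HNF4 motif CAAAGTCCA in 0% against 0.384%. Both strands were searched for each motif. A match is a run of letters in a window, not a site shown to be bound.

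Levels are given in CPM, the reads of a gene relative to library size as scaled by edgeR's TMM method over all 20 libraries. Libraries held 27857056 to 40385785 counts on chow and 16881567 to 24423757 on HFD. Pcca itself was at 40.6 to 57.2 CPM in chow ff, 28.2 to 33.9 in chow Vill, 39.3 to 60.2 in chow Alb, 28.9 to 57.9 in HFD ff and 32.2 to 35.9 in HFD Vill. Chow Vill did not overlap chow ff (log2 difference -0.67, SE 0.16), whereas HFD ff 1 and 3, at 28.9 and 31.4 CPM, lay below every HFD Vill library. In the edgeR test described below 0 genes were called lower in chow Vill against chow ff or in HFD Vill against HFD ff. The targeted gene itself was thus not called. The deleted exons are not given in the sources used here, so reads outside them count towards these levels. All chow libraries carried Xist (843 CPM or more) and no Ddx3y, and all HFD libraries carried Ddx3y (77.0 CPM or more), so diet, age, sex and count table cannot be told apart. Chow Alb 2 had 86.7 CPM summed over squamous markers, against at most 7.19 elsewhere, and Alb stood at 26.3 and 48.3 CPM in chow Vill 1 and 4, against at most 10.9 in the others.

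Together the 57 members took between 0.236% and 0.534% of counted reads. Their summed level was 2942.5 ± 540.2 CPM in chow ff (SD, n = 4), 3131.5 ± 905 in chow Vill, 3025 ± 541 in chow Alb, 3499.7 ± 1196 in HFD ff and 2616 ± 213 in HFD Vill. On average 40 members reached 1 CPM, 31 reached 10 CPM and 10 reached 100 CPM, while 12 had at most 100 reads in all libraries. Per kb of gene length, Sult1 supplied 25.1% of the summed level, Ces2 18.2%, Gstm 14.2%, Gsto 12.4%, Ugt2 9.45%, Gstp 6.63%, Ces1 4.58%, Gsta 2.69%, Ugt1 2.44%, Gstt 2.31% and Gstk 2.04%. The families differed in how far libraries stood apart. The highest library exceeded the lowest 13.3-fold in summed Ces1 CPM and 4.93-fold in Gsta, but 2.04-fold in Gstt, 1.95-fold in Ugt2 and 1.58-fold in Gsto.

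**Figure D1:**
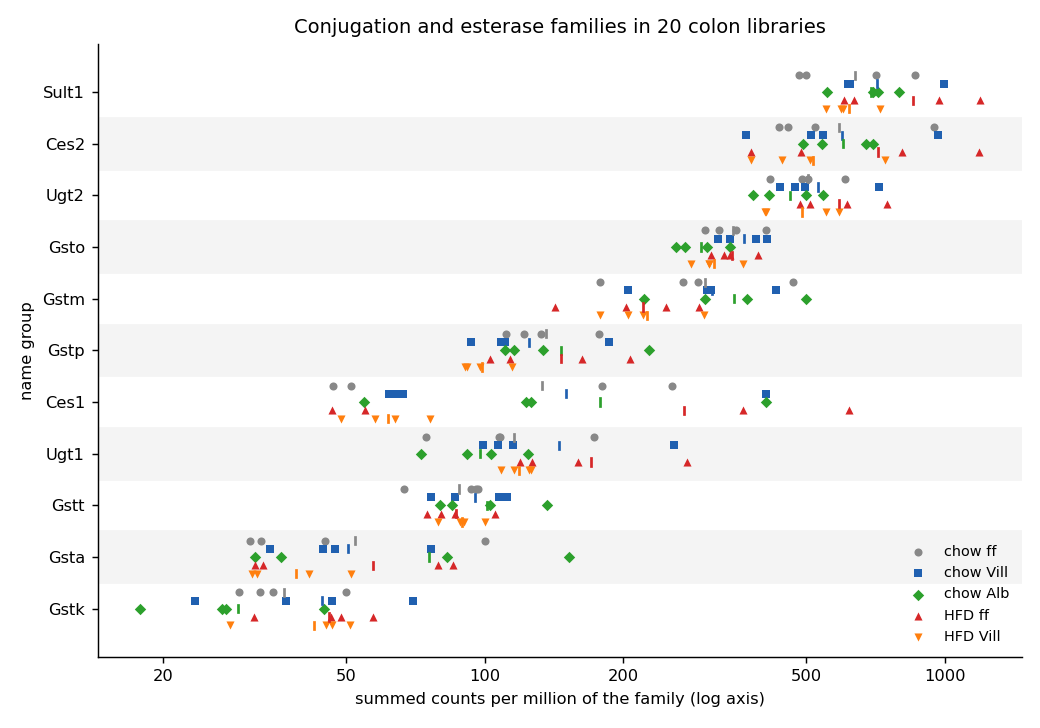
Summed CPM of each name group (log axis) in the 20 libraries, 1 point per library, with the group mean as a short bar. Ces1 spreads from 46.7 to 619 CPM, with chow Vill 1, chow Alb 1, HFD ff 1 and HFD ff 3 on the right, while Gsto stays between 260.1 and 411 CPM.

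Among glutathione transferases, Gsto1, an omega enzyme that also reduces dehydroascorbate, was the highest of all members per kb (164 CPM per kb, mean of 20 libraries). Its CPM lay between 259 and 410 in all libraries, a 1.59-fold range, and its family partner Gsto2 averaged 0.868 CPM. Gstm1, the leading mu-class enzyme, followed with 98.2 CPM per kb. Gstm1 stood at 299, 85.9, 123 and 153 CPM in chow ff, 154, 151, 231 and 88.6 in chow Vill, 330, 214, 108 and 165 in chow Alb, 60.7, 131, 127 and 67.3 in HFD ff, and 79.4, 82.7, 145 and 94.7 in HFD Vill. Chow ff 1 and chow Alb 1 were highest and all groups overlapped. Gstm2 and Gstm3 averaged 35.4 and 19.7 CPM per kb. Gstp1, the leading pi-class enzyme, averaged 76.3 CPM per kb, with 8.77 for its near copy Gstp2 and 2.79 for Gstp3.

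The theta enzymes Gstt1, Gstt3 and Gstt2 averaged 12.1, 9.48 and 8.95 CPM per kb, and Gstt3 varied only 1.75-fold over the libraries. Gstk1, a kappa enzyme of mitochondria and peroxisomes, averaged 27.0 CPM per kb. In the alpha class, Gsta4, which conjugates 4-hydroxynonenal from lipid peroxidation, supplied 65.1% of the family's level per kb. Gsta4 was at 61.9 and 51.5 CPM in HFD ff 1 and 3 and at 13.8 and 20.0 in HFD ff 2 and 4. Gsta3 showed another order of libraries. It reached 57.0 CPM in chow ff 1 and 69.8 in chow Alb 1, against 4.07 to 31.8 in all others. Gsta1 was highest in the same pair, at 18.3 and 22.6 CPM, against at most 11.6 in all others.

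Among glucuronosyltransferases, Ugt2b34 was the highest, at 110 CPM per kb, and ranged 1.85-fold, from 359 to 663 CPM. Ugt1a7c led the Ugt1 group with 81.2% of its level per kb and 26.3 CPM per kb. Ugt1a1, the enzyme that conjugates bilirubin, was low in most libraries and high in a few. It stood at 1.07, 18.4, 2.40 and 0.511 CPM in chow ff, 23.0, 1.24, 1.49 and 2.09 in chow Vill, 6.28, 1.48, 9.37 and 1.44 in chow Alb, 30.3, 1.69, 44.1 and 2.59 in HFD ff, and 2.59, 2.35, 1.60 and 1.49 in HFD Vill. The highest and lowest libraries differed 86.4-fold. Ugt2b5 was high in the same libraries, with 65.0 and 54.6 CPM in HFD ff 1 and 3, 44.3 in chow Vill 1, 24.0 in chow ff 2 and 16.4 in chow Alb 3, against at most 5.55 in all others. Ugt1a6a, which conjugates small phenols, reached 28.2 and 36.2 CPM in HFD ff 1 and 3 and 20.8 in chow Vill 1, and at most 10.4 elsewhere. Ugt2b35 and Ugt2b36 averaged 8.23 and 0.702 CPM per kb.

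Of the carboxylesterases, Ces2c (112 CPM per kb), Ces2e (83.8) and Ces2a (32.6) led the Ces2 group, whose enzymes favour esters with a large alcohol part. Ces2e was at 147, 322, 172 and 135 CPM in chow ff, 340, 155, 77.1 and 189 in chow Vill, 231, 99.7, 278 and 140 in chow Alb, 445, 179, 542 and 186 in HFD ff, and 308, 203, 156 and 217 in HFD Vill. HFD ff 3 and 1 were highest, followed by chow Vill 1. Ces2g ran the other way and was lowest in HFD ff 1 (7.19 CPM), chow Vill 1 (8.27), chow ff 2 (9.78) and HFD ff 3 (9.78), against 11.0 to 37.5 CPM elsewhere. Ces1g, a lipid-hydrolysing esterase, ranged 190-fold. It stood at 89.6, 43.7, 3.67 and 2.18 CPM in chow ff, 153, 9.33, 3.89 and 7.51 in chow Vill, 246, 7.55, 15.2 and 2.62 in chow Alb, 106, 1.42, 270 and 3.00 in HFD ff, and 6.71, 8.28, 3.15 and 2.17 in HFD Vill. The high Ces1g libraries thus include both those high in Ugt1a1 and the pair high in Gsta3, chow ff 1 and chow Alb 1. Ces1f ranged from 13.5 to 225 CPM and Ces1d from 12.9 to 99.7 CPM, and both were highest in HFD ff 3.

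For the sulfotransferases, Sult1 was the name group with the largest share of the summed level per kb, at 25.1%. Each other enzyme class is split between name groups, so this ranking does not compare whole classes. Sult1a1, which acts on phenols, averaged 134 CPM per kb, Sult1d1, which acts on catecholamines, 113, and Sult1b1, known for thyroid hormone sulfation, 68.6. Sult1b1 was among the steadiest members, at 137 to 228 CPM in all libraries. Sult1d1 was at 569 CPM in HFD ff 3, 486 in chow Vill 1, 457 in HFD ff 1, 445 in chow ff 2 and 361 in chow Alb 3, and between 165 and 279 CPM in all others. Sult1c2 averaged 17.0 CPM per kb. Sult1e1, the oestrogen sulfotransferase, had 2 reads in all, and Sult1c1 had 53.

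The first comparison asked whether losing Pcca in the colon epithelium altered these enzymes on chow. It gave no call. Called means past 0.05 in edgeR's quasi-likelihood test after Benjamini-Hochberg adjustment across every gene tested. Of the 57 members 45 passed the filter on low counts in the chow fit. In chow Vill against chow ff 0 of 45 were called, where 0.00508% of all genes were, and 0 had an unadjusted p under 0.05 (1.9% of all genes). Among members at 1 CPM or more, 0 of 40 had groups that did not overlap, beside 1.15% of all such genes. The smallest unadjusted p belonged to Sult1c2, which was at 15.5, 22.4, 27.0 and 17.8 CPM in chow ff and 41.4, 38.0, 24.9 and 17.2 in chow Vill. Those groups overlap (log2 0.55, 95% interval -0.03 to 1.14, edgeR adjusted p = 1). Next came Ugt1a6a (0.70, -0.28 to 1.68), Gstm3 (0.45, -0.20 to 1.09), Sult1a1 (0.42, -0.20 to 1.03) and Gstm7 (0.33, -0.18 to 0.84). The median over members was 0.0728, beside 0.00342 over all tested genes, with a median SE of 0.391 per member.

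In colons of liver knockouts, chow Alb against chow ff, 0 of 45 members were called (0% of all genes), 0 had an unadjusted p under 0.05 (4.4% of all genes) and 0 of 40 had groups that did not overlap (2.85% of all such genes). Gsta4, Ces1d and Gsto1 had the smallest unadjusted p. Gsta4 was at 24.3, 27.3, 18.0 and 11.3 CPM in chow ff and 58.3, 44.0, 25.1 and 17.6 in chow Alb, groups that overlap (log2 0.83, -0.10 to 1.76). Ces1d gave 0.99 (-0.12 to 2.10), Gsto1 -0.25 (-0.52 to 0.03), Gstt1 0.46 (-0.13 to 1.04) and Sult1a1 0.44 (-0.18 to 1.06), all with an edgeR adjusted p of 0.99. Both comparisons share the chow ff animals.

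Setting the knockouts against each other, chow Vill against chow Alb, 0 of 45 members were called (0.00508% of all genes) and 1 had an unadjusted p under 0.05, beside 8.87% of all genes. That member, Gsto1, was at 410, 321, 388 and 340 CPM in chow Vill and 304, 341, 271 and 259 in chow Alb, so only chow Alb 2 overlaps the Vill range (log2 0.32, 0.05 to 0.60, edgeR adjusted p = 0.551). Ugt1a7c gave 0.56 (-0.05 to 1.18), Ces1d -0.96 (-2.07 to 0.15), Gstk1 0.62 (-0.10 to 1.34) and Ugt1a6a 0.76 (-0.22 to 1.74). Ces1c, a secreted esterase of plasma, was the 1 of 40 members at 1 CPM or more whose groups did not overlap, a pattern seen in 4.9% of all such genes. It was at 2.52, 3.11, 3.20 and 6.85 CPM in chow Vill and 2.26, 1.74, 0.525 and 2.14 in chow Alb (exact permutation p = 0.0286, the smallest that 4 against 4 allows, and edgeR adjusted p = 0.817). Any groups of 4 that do not overlap give that permutation p, so it adds nothing to the lack of overlap. In chow ff Ces1c was at 15.9, 0.161, 0 and 5.33 CPM, a range that covers both knockout groups. In each of these chow comparisons DESeq2 and limma-voom called 0 members as well, beside at most 0.188% of all genes.

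On HFD, the comparison of Vill with ff gave no call, and most of its unadjusted differences changed when a pair of control libraries was left out. Of 41 members that passed the filter 0 were called (0.00564% of all genes), and 0 of 40 had groups that did not overlap (2.12% of all genes at 1 CPM or more). DESeq2 (0.0128% of all genes) and limma-voom (0.00564%) called 0 members too. An unadjusted p under 0.05 was reached by 11 of 41 members, beside 3.45% of all genes, and 10 of the 11 were lower in Vill. The lower ones were Ugt1a1 (log2 -3.30, -5.55 to -1.04), Ugt1a6a (-1.47), Ces1g (-4.23), Gstp2 (-0.87), Ces1d (-1.67), Ces1f (-2.21), Ugt2b5 (-3.48), Gstp1 (-0.56), Sult1d1 (-0.75) and Ces2b (-1.98), and the higher one was Ces2f (1.75, 0.23 to 3.28). The edgeR adjusted p was 0.932 for each of them. The spread within HFD ff was wide for Ces1g, at 106 and 270 CPM in HFD ff 1 and 3, and at 1.42 and 3.00 in HFD ff 2 and 4. HFD Vill lay between 2.17 and 8.28 CPM.

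Leaving out HFD ff 1 and 3 keeps HFD ff 2 and 4 as the only controls. In that fit 0 of 42 members had an unadjusted p under 0.05, beside 0.822% of all genes. The members listed above were picked by their p with the pair included, so the refit is not a separate test of them. The log2 differences became -0.08 for Ugt1a1, -0.10 for Ugt1a6a, 1.21 for Ces1g, -0.56 for Gstp2, 0.04 for Ces1d, 0.34 for Ces1f, 0.07 for Ugt2b5, -0.08 for Gstp1, -0.01 for Sult1d1 and 0.52 for Ces2b, while Ces2f stayed at 1.53 (-0.64 to 3.70). The members' median moved from -0.251 (all genes -0.00382) to -0.0322. With the whole set of libraries and the Hox level described below as a covariate, 1 of 41 members had an unadjusted p under 0.05, beside 1.05% of all genes.

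**Figure D2:**
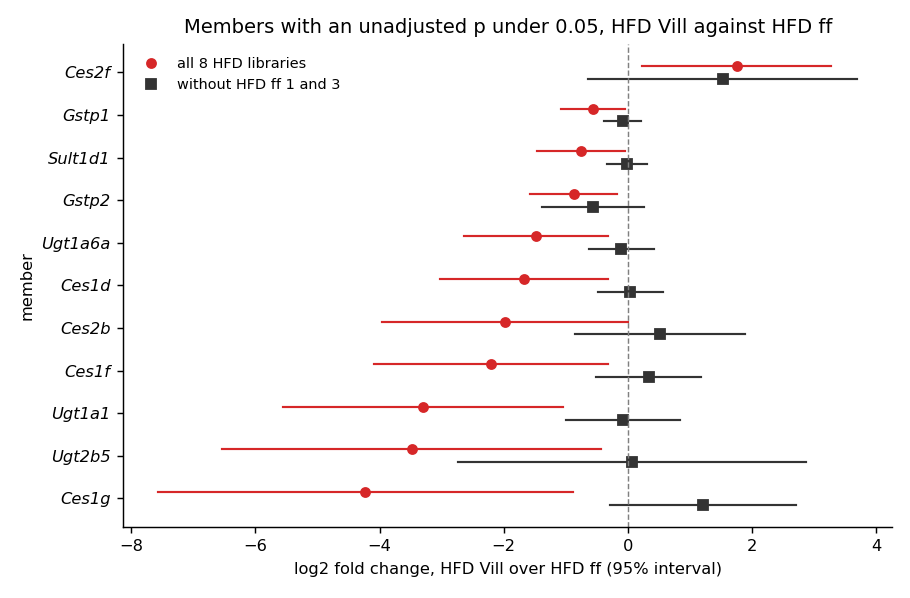
Log2 fold change with its 95% interval (edgeR) for the 11 members with an unadjusted p under 0.05 in HFD Vill against HFD ff, from all 8 HFD libraries (red circles) and without HFD ff 1 and 3 (dark squares). With the pair left out, HFD ff 2 and 4 are the only controls, every interval includes 0, and Ces1g moves from -4.23 to 1.21.

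The difference of the Vill effect between HFD and chow was tested as an interaction in 16 libraries. Of 44 members 0 were called (0% of all genes) and 1, Ugt1a6a, had an unadjusted p under 0.05, beside 2.54% of all genes (log2 -2.16, -3.70 to -0.63, edgeR adjusted p = 1). Sult1a1 gave -1.04 (-2.09 to 0.01), Ces1g -4.54 (-9.16 to 0.08), Ugt1a1 -3.61 (-7.36 to 0.14) and Gstp2 -0.90 (-1.84 to 0.05). Without chow ff 2, chow Vill 1 and HFD ff 1 and 3, the value for Ugt1a6a was -0.58 and 0 members had an unadjusted p under 0.05, beside 1.31% of all genes. DESeq2 and limma-voom called 0 members in this test too, beside 0% of all genes in each.

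Between HFD and chow the enzymes held few calls. In ff animals 1 of 44 members (2.27%) was called, where 13.2% of all tested genes were (6.32% higher and 6.84% lower). The called gene was Sult1c2 (chr17:54136665-54153367, mm39, minus strand), a sulfotransferase of phenolic compounds. It was at 15.5, 22.4, 27.0 and 17.8 CPM in chow ff and at 72.0, 33.5, 41.7 and 32.2 in HFD ff, so the groups did not overlap, as in 21.6% of genes at 1 CPM or more. Sult1c2 rose by 1.12 on the log2 scale (0.45 to 1.80, edgeR adjusted p = 0.0299, exact permutation p = 0.0286). Without HFD ff 1 and 3 its value was 0.68 (edgeR adjusted p = 0.23), and leaving out HFD ff 1 alone gave 0.81 (0.103). The call was also lost without chow ff 1, 2 or 4, with adjusted p of 0.0914, 0.0562 and 0.0748.

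Other members of the ff comparison with small unadjusted p were Ugt1a6a (log2 1.60, 0.50 to 2.69, edgeR adjusted p = 0.0529), Ces2f (-2.08, adjusted p = 0.0864), Ces1e (0.99, adjusted p = 0.123) and Gstm1 (-0.77, adjusted p = 0.199). Ugt1a6a was called without HFD ff 2 or without HFD ff 4, which gave 2 members instead of 1, beside 9.36% and 9.21% of all genes. With chow ff 2, chow Vill 1 and HFD ff 1 and 3 left out it was at 0.55, and 0 members were called beside 3.76% of all genes. All 7 Gstm members had negative values here, as they did in Vill, none of them called. Over all members, 20 of 44 values were negative in ff and 35 of 44 in Vill.

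In Vill animals 1 of 44 members was called, where 7.19% of all tested genes were (3.87% higher and 3.32% lower). Gstt1 (chr10:75619647-75634418, mm39, minus strand), a theta transferase that acts on small halogenated compounds, was at 22.6, 28.0, 24.0 and 13.9 CPM in chow Vill and at 12.8, 12.1, 13.4 and 9.59 in HFD Vill. The groups did not overlap, as in 15.1% of genes at 1 CPM or more. Gstt1 fell by 0.88 on the log2 scale (interval -1.39 to -0.36, edgeR adjusted p = 0.0414, exact permutation p = 0.0286). The call was lost without chow Vill 1, 2 or 3 and without any of the 4 HFD Vill libraries, with adjusted p from 0.0598 to 0.115 and log2 values from -0.93 to -0.74. Gstm3 (-0.70, adjusted p = 0.177), Gsto2 (-0.66), Ces1g (-3.08) and Ces1f (-1.62) followed. Sult1c2 had 0.33 in Vill and Gstt1 had -0.39 in ff, neither called, and the interactions were -0.80 (-1.74 to 0.14) and -0.49 (-1.21 to 0.24). Members had the same sign in ff and Vill for 23 of 44, and all tested genes for 14969 of 19516.

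**Figure D3:**
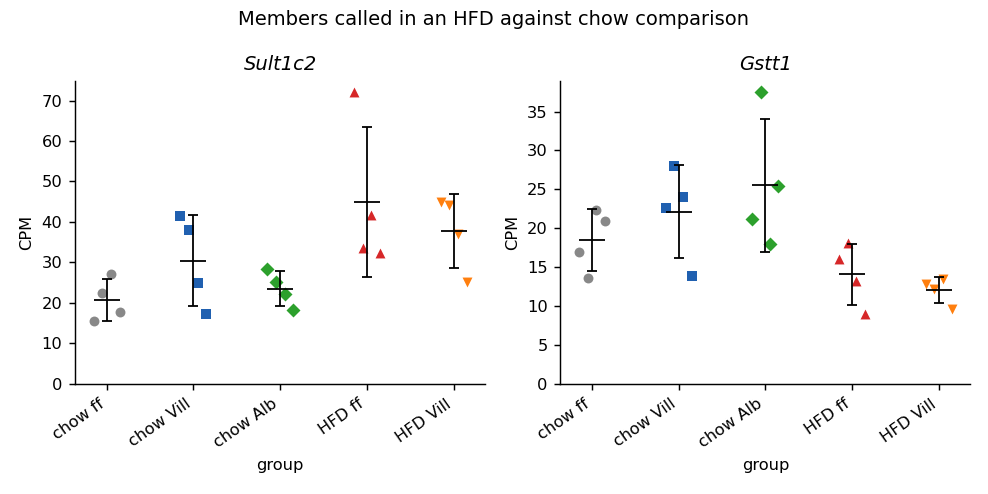
CPM of Sult1c2 and Gstt1 in the 4 libraries of each group, with mean and SD as black bars. HFD ff lies above chow ff for Sult1c2, led by HFD ff 1 at 72.0 CPM, and HFD Vill lies below chow Vill for Gstt1.

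Marker sums of other cell types were mostly lower in HFD libraries. Summed B and plasma cell markers were at 219 to 1082 CPM in chow libraries and 43.2 to 280 in HFD libraries, fibroblast markers at 564 to 1234 and 267 to 538, macrophage markers at 48.1 to 135 and 29.5 to 52.6, and epithelial markers at 11678 to 18459 and 9516 to 16656. Of these ranges, those of the fibroblast markers did not overlap, and the others did. On average, Col1a1, Col1a2 and Col3a1 made up most of the fibroblast sum, and Jchain most of the B and plasma cell sum. Lum averaged 36.5 CPM in chow ff and 37.6 in HFD ff, whereas Col3a1 (415 and 146), Dcn (167 and 129) and Pdgfra (48.6 and 21.8) were lower. The part of these cell types in the levels of Sult1c2 and Gstt1 was not tested beyond a fit with the epithelial markers as a covariate. In that fit Sult1c2 had 1.01 (edgeR adjusted p = 0.0695) and Gstt1 in Vill had -0.91 (0.00748), and 4 of 44 members were called in ff (Ugt1a6a, Ces2f, Gstt1 and Gstk1), beside 13.9% of all genes.

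The widest differences among members lay in individual libraries, and some of them went with a set of position genes. Hoxb13, Hoxd13, Hoxa13 and Hoxd12 are posterior Hox genes, whose expression rises towards the rectal end of the gut. Their mean log2 CPM (the Hox level) ran from -1.96 in chow Vill 1, -0.66 in chow Alb 3 and 1.17 in chow ff 2 to between 3.51 and 6.37 in the other chow libraries. On HFD it was -3.61 and -1.95 in HFD ff 1 and 3 and between 1.68 and 4.88 in the others. Slc10a2, the bile acid transporter of the ileum, was at 434 and 505 CPM in HFD ff 1 and 3, 273 in chow Vill 1, 240 in chow ff 2 and 27.9 in chow Alb 3, and at most 10.6 CPM elsewhere. Over 12 small intestine markers the sum was 887 to 1339 CPM in these 5 libraries and 251 to 724 in the rest. The list includes Slc10a2, so this sum is not a measure separate from it. Of that list Sis, the sucrase of the small intestine, was at 33.6 CPM in chow ff 2, 60.6 in chow Vill 1 and 57.7 and 74.3 in HFD ff 1 and 3, against at most 1.96 elsewhere. Fabp6, the ileal bile acid binding protein, was at 24.8 and 17.4 CPM in HFD ff 1 and 3 and at most 5.49 elsewhere, while Lct and Apoa4 reached at most 0.43 and 0.396 CPM in any library. Others of the list did not single out the 5 libraries. Fabp2 was also high in chow Vill 4 (511 CPM) and chow Alb 1 (463 CPM), and Alpi in HFD Vill 1 (51.5 CPM). Rbp2 was lowest of all in HFD ff 1 (3.21 CPM) and Slc5a1 in chow Alb 3 (114 CPM). The 6 colon epithelium markers did not go 1 way. Car1 was highest in the 5 libraries, at 3533 to 9754 CPM against 257 to 1459, whereas Aqp8 was at 4.44 and 36.8 CPM in HFD ff 1 and 3 (130 to 551 in the other HFD libraries) and Slc26a3 at 119.9 and 324 (673 to 916). In chow Vill 1 Aqp8 (377 CPM), Car4 (595 CPM) and Slc26a3 (672 CPM) were the lowest of their group.

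**Figure D4:**
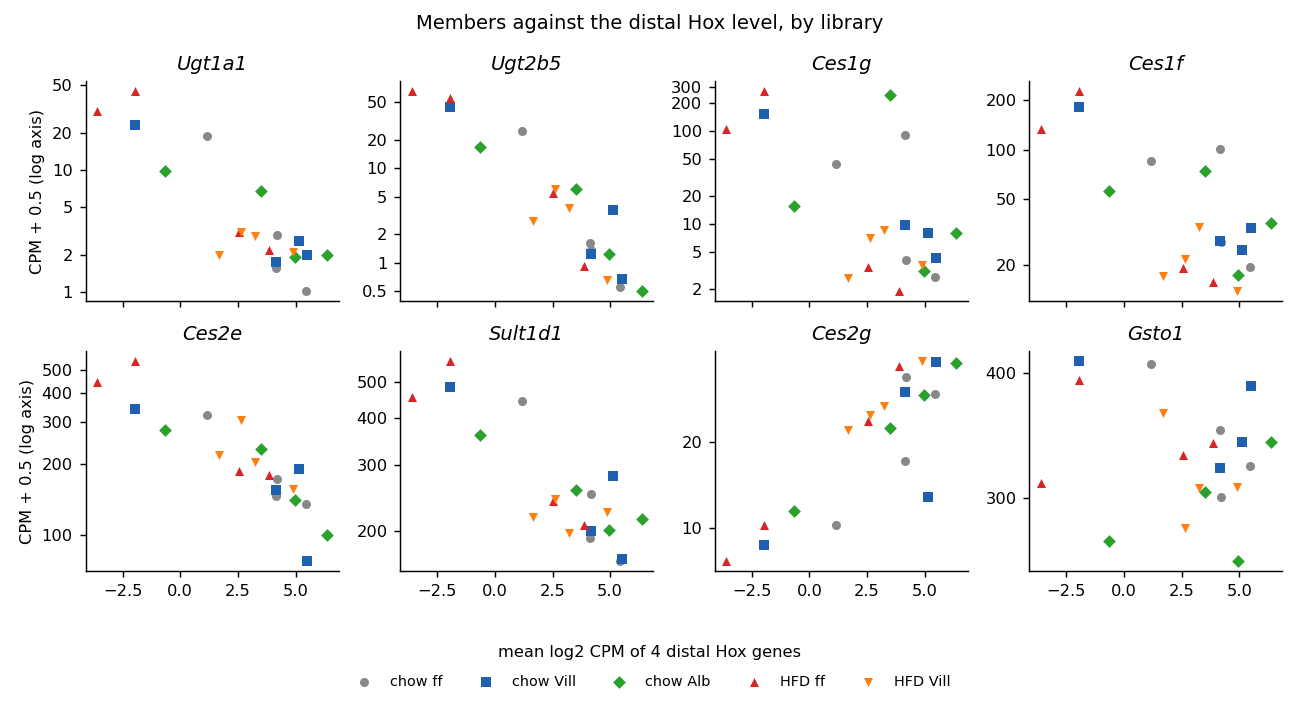
CPM + 0.5 (log axis) of 8 members against the mean log2 CPM of 4 distal Hox genes, 1 point per library. Ugt1a1, Ugt2b5, Ces2e and Sult1d1 are high at the left, where chow Vill 1 and HFD ff 1 and 3 lie, Ces2g is low there, and Gsto1 stays between 259 and 410 CPM throughout.

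The slope on the Hox level was fitted within the groups of each diet, a test chosen after the data had been seen. In the 12 chow libraries 9 of 45 members (20%) were called, where 6.59% of all genes were (3.52% with a positive and 3.07% with a negative slope). Of these members, 7 had a negative slope and so were higher at a lower Hox level. They were Ugt2b5 (log2 slope -0.94 per log2 unit of Hox level, SE 0.17, edgeR adjusted p = 0.0131), Ugt1a1 (-0.59, SE 0.09, adjusted p = 0.00837), Ugt2b36 (-0.54), Ces2e (-0.21), Sult1d1 (-0.17), Gstk1 (-0.16) and Ugt1a7c (-0.12). Both others, Ces2f (0.37, SE 0.10) and Ces2g (0.26, SE 0.06), are neighbours of Ces2e on chromosome 8 and went the opposite way. Ces1g had a slope of -0.60 (SE 0.26, adjusted p = 0.171), and Gsto1 (-0.01, SE 0.02), Sult1b1 (0.02, SE 0.02) and Gsta3 (0.15, SE 0.14) were not called.

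In the 8 HFD libraries, which share no animal with the chow fit, 2 of 41 members (4.88%) were called where 0.457% of all genes were (0.339% with a positive and 0.119% with a negative slope). Ces2g had a slope of 0.29 (SE 0.02, edgeR adjusted p = 0.00544) and Ugt2b36 of -0.48 (SE 0.07, adjusted p = 0.0467). Ugt1a6a (-0.30, SE 0.05, adjusted p = 0.0577), Ugt1a1 (-0.61, SE 0.13, 0.0718) and Ugt2b5 (-0.84, SE 0.17, 0.071) were near the threshold. All 9 members called on chow had the same sign on HFD, as did 94.2% of the 1222 genes called on chow and tested on HFD. Over all members tested in both diets 38 of 41 had the same sign, and over all genes 69.7%.

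**Figure D5:**
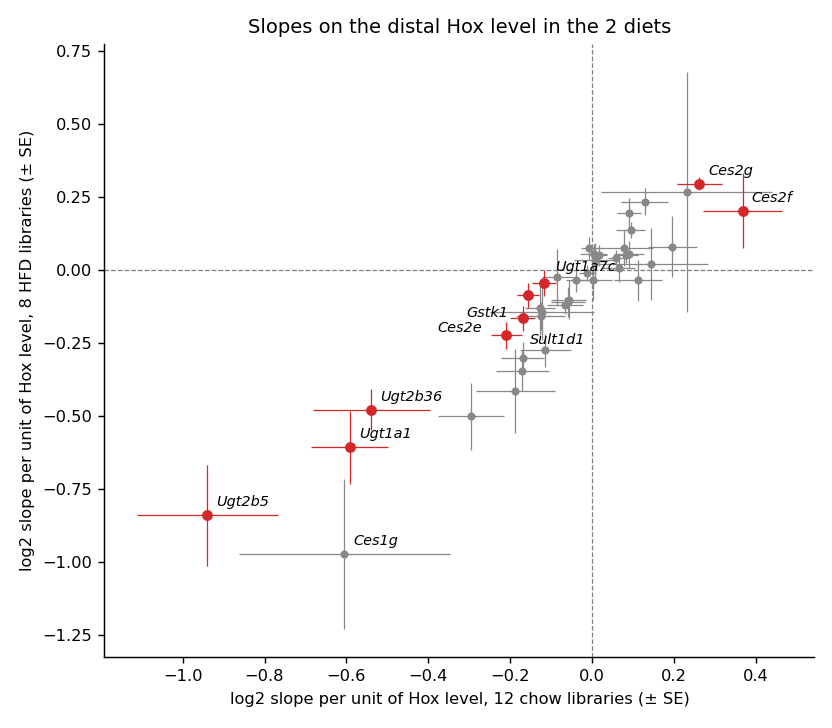
Log2 slope per unit of Hox level with its SE for the 41 members tested in both diets, chow on the x axis and HFD on the y axis. Red points are members called in 1 diet or both, and most members lie in the lower left or upper right corner region, Ugt2b5 (-0.94 and -0.84) farthest among the called.

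These calls rest on few libraries. Without chow Vill 1, 0 of 45 members were called on chow, beside 0.0398% of all genes. The slopes were then -1.27 for Ugt2b5, -0.65 for Ugt1a1, -0.68 for Ugt2b36, -0.24 for Ces2e, -0.17 for Sult1d1, -0.17 for Gstk1, -0.07 for Ugt1a7c, 0.53 for Ces2f and 0.28 for Ces2g. Leaving out chow ff 2, chow Vill 3 or chow Alb 2 gave 5 calls each (Ugt1a1, Ugt2b5, Ces2e, Sult1d1 and Gstk1), beside 2.42%, 2.95% and 2.74% of all genes, and leaving out chow Vill 4 gave 20, beside 20% of all genes. On HFD 0 members were called without HFD ff 1, 2 or 3, 1 without HFD ff 4 or HFD Vill 1, 2 or 3 (Ces2g each time), and 15 without HFD Vill 4, beside 8.56% of all genes. In the fits with 0 calls at most 0.00555% of all genes were called, and in those with 1 call 0.0386% to 0.176%. With both HFD ff 1 and 3 left out the slopes were 0.29 for Ces2g and -0.68 for Ugt2b36, with 0 calls among all genes. With the epithelial marker mean added to the chow fit 0 members were called, beside 0.142% of all genes, and the slopes were -0.58 for Ugt2b5, -0.41 for Ugt1a1, -0.12 for Ces2e and 0.12 for Ces2g. Epithelial marker sums were 17096 to 18459 CPM in chow ff 2, chow Vill 1 and chow Alb 3 and 9516 and 12076 in HFD ff 1 and 3. Chow Vill 4, at a Hox level of 5.13, had 17973 CPM. The part of other cell types was not tested.

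Genes that work beside these enzymes were read from 5 lists: sensors, oxidation and reduction, glutathione and cofactor supply, other conjugation, and hydrolysis back and export. None of the 81 tested on chow or the 76 tested on HFD was called between genotypes, beside at most 0.00564% of all genes. In HFD ff against chow ff 1 of 80 was called higher and 5 lower, beside 6.32% and 6.84% of all genes. Gss, which makes glutathione, rose by 0.60 (SE 0.14), with 99.6 to 116 CPM in chow ff and 144 to 209 in HFD ff. Fmo2, a flavin monooxygenase, fell by 1.40, Ephx1, the microsomal epoxide hydrolase, by 0.49, Sult2b1, a cholesterol sulfotransferase, by 1.11, Abcb1b, a drug exporter, by 1.52, and Slco2a1, a prostaglandin carrier, by 1.37. In HFD Vill against chow Vill 2 of 80 were called, where 7.19% of all genes were. They were Slco2a1 (-1.25) and Cyp2s1 (-1.02), both lower. Without chow ff 2, chow Vill 1 and HFD ff 1 and 3 the ff comparison called Gss alone (3.76% of all genes), and the Vill comparison called Cyp2d34, Gss and Slco2a1 (5.63%).

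Along the Hox level on chow 4 of the 81 were called with a positive and 13 with a negative slope, beside 3.52% and 3.07% of all genes. The 13 were higher at a lower Hox level. Cyp4b1 (-0.64, SE 0.10), Cyp2c55 (-0.64, SE 0.11), Aldh1a1, which makes retinoic acid (-0.49, SE 0.10), and Ugt8a (-0.64) had the steepest slopes. Cyp2c55 was at 1816 CPM in chow Vill 1, 898 in chow ff 2, 873 in chow Alb 3 and 632 in chow Alb 1, against 30.6 to 261 in the other chow libraries. In the list of glutathione and cofactor supply 2 of 16 genes were called, both with a negative slope. They were Ugdh, which makes UDP-glucuronic acid (-0.18), and Papss2, which makes the sulfate donor (-0.15). The median slope of that list was -0.0288, beside 0.00414 over all tested genes. Of the sensors 2 of 10 were called, Nfe2l2 (-0.10) and Ppara (-0.25). Of hydrolysis back and export 1 of 11 was, the exporter Abcc3 (-0.11). Adh1 (0.50, SE 0.07), Hpgds (0.18), Fmo4 (0.30) and Cyp2d34 (0.14) went with the Hox level. On HFD 0 of 76 were called (Cyp4b1 -0.81, Aldh1a1 -0.48 and Adh1 0.45), beside 0.457% of all genes. On chow without chow Vill 1 0 of 81 were called, beside 0.0398%. The sensor Hnf4a, whose protein activates many gut genes, was not called and ranged from 638 to 1285 CPM.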

How the data were processed

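RNA-seq of mouse colon was deposited as 2 tables of gene counts, raw whole-number reads per gene, per the file headers, 1 for the 12 chow libraries and 1 for the 8 HFD libraries. Per the submitters' processing notes, the build was mm39, and the tools listed there include featureCounts (version 1.5.0-p3) and HISAT2 (version 2.0.5), besides edgeR 3.22.5 and DESeq2 1.20.0, with no role stated. The annotation release and the strand setting are not given in the sources used here, so reads of overlapping genes may be shared. Another 28 per-sample columns were not used.

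Counts were tested with edgeR 4.0.16 (R 4.3.3): TMM scaling, filterByExpr, quasi-likelihood F test and Benjamini-Hochberg adjustment over all tested genes, with a threshold of 0.05. Chow (12 libraries, 19701 genes), HFD (8, 17715) and both diets (16, 19516) were fitted separately, without a replicate block. Levels are CPM on 1 TMM scale over the 31184 shared genes, and levels per kb use the gene length in the file. Exact permutation tests over 70 assignments used log2(CPM + 0.5), two-sided. DESeq2 1.42.0, limma-voom (limma 3.58.1), other filters and scaling, covariates and left-out libraries served as alternatives. The edgeR step was tested on simulated data.

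The members and gene lists were chosen with earlier results of these data known. Named members are the 3 highest per kb in each name group, the called ones and the 5 with the smallest unadjusted p in each comparison. The slope on the Hox level, the left-out pairs of libraries, Ces1c and the other members and pathway genes named with their values were chosen after seeing the data. The values of 1 listed sensor gene are not reported here.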

Additional observations from a re-analysis of the deposited data

Results flagged for a closer look

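In 210 groups of 4 libraries (members and family sums at a mean of 10 CPM or more), 15 had 1 library far from the other 3 by Dixon's ratio, and chance alone gives about 1 group in 20. In chow ff the library was chow ff 2. It was lowest for the summed Gstt family (66.8 CPM), Gstt2 (24.0 CPM), Gstt3 (29.1 CPM) and Ugt2b35 (18.9 CPM), and highest for Ces2c (475 CPM). In chow Vill it was chow Vill 1, the highest for the summed Ugt1 (258 CPM), Ces1 (410.0 CPM) and Sult1 (996 CPM) families and for Gstp1 (172 CPM), Ugt1a7c (213 CPM) and Ces1f (180.0 CPM). These are the 2 chow libraries with over 100 CPM of Slc10a2, and what sets them apart was not tested.

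In HFD ff, Gstm4 was lowest in HFD ff 1 (8.41 CPM). In HFD Vill, Gstp1 was highest in HFD Vill 4 (102 CPM), Ugt1a6a was lowest in HFD Vill 3 (5.88 CPM) and Sult1a1 was highest in HFD Vill 3 (240 CPM).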

How the results depend on the processing

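The counts of 0 called members in the 4 genotype comparisons and in the difference between diets stayed 0 under every alternative run and with each library left out (0 to 0). At most 0.188% of all genes were called in those fits. In HFD ff against chow ff the count of 1 became 3 with DESeq2 (11.5% of all genes), 2 with a filter of 1 CPM in 4 libraries (15.6%) and 4 with the epithelium covariate (13.9%). It became 0 with the Hox covariate (12%), without HFD ff 1 and 3 (5.55%), or without the 4 libraries with Slc10a2 over 100 CPM (3.76%). It was 0 to 2 with each library left out (7.6% to 10.7% of all genes). In HFD Vill against chow Vill it became 0 with limma-voom (7.08% of all genes), without a filter (3.01%), and without those 4 libraries (5.63%). It was 0 to 1 there with each library left out (3.22% to 6.53%). The Hox level on chow gave 0 calls without chow Alb 3 and chow Vill 1 (0.005% of all genes) and 16 with Hoxb13 alone (10.9%). It gave 0 with the epithelium covariate (0.142%), 0 without the Slc10a2 libraries (0.015%) and 0 to 20 with each library left out (0.0398% to 20%). On HFD it gave 0 calls without HFD ff 1 and 3 (0% of all genes), 7 with Hoxb13 alone (1.44%) and 8 without a filter (0.933%). It gave 0 without the Slc10a2 libraries (0%) and 0 to 15 with each library left out (0.00553% to 8.56%). The cause was not tested.

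Ces1g in HFD Vill against HFD ff turned to 0.60 with the Hox covariate, 1.21 without HFD ff 1 and 3 and 0.12 with a small intestine marker covariate, and Ces1d to 0.042 without HFD ff 1 and 3. Ces1g in the difference between diets turned to 1.46 with the Hox covariate, 0.89 without HFD ff 1 and 3 and 3.38 without the Slc10a2 libraries. Of the member fold changes and slopes followed through the alternatives, 792 kept direction and side of the threshold, 98 lost and 12 gained a call, and 7 reversed. Not every member was followed in this count. In HFD Vill against HFD ff, Ces1f, Ugt2b5 and Ces2b also changed sign without HFD ff 1 and 3 and are not among the 7. Replicate numbers did not pair the samples (correlations of deviations from -0.727 to 0.644). With a replicate block 0 members were called in each genotype comparison and in the difference (at most 0.00564% of all genes). The block fit called 1 (Sult1c2) in HFD ff against chow ff (12.2%) and 1 (Gstt1) in HFD Vill against chow Vill (6.15%).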
